A study of Homo sapiens with 24 samples.

Results

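Long noncoding RNAs are transcripts that are not translated into protein, and many of them stay in the nucleus. The 10 described here are MALAT1, NEAT1, CASC15, DLEU2, LINC01419, KCNQ1OT1, PVT1, MIAT, MEG3 and H19. They were taken by name from both deposited tables, which list 28008 genes in batch 1 and 60221 genes in batch 2. SLNCR, the long noncoding RNA that the study overexpressed, is not among them. They were chosen by name, with no threshold on a measured value. Earlier results of these data, among them the batch 1 differences of LINC01419, were in view, so the p-values below are output of the fit over all genes and not independent evidence about the group. For LINC01419 the batch 1 differences were already known, and they are given as a description without a test.

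RNA was sequenced from A375, an established human melanoma cell line. Cells were transfected with a pcDNA3.1 plasmid that has a CAG promoter and a puromycin resistance gene, and were kept in 2 µg/mL puromycin for 48 h. The 24 libraries form 8 groups of 3 biological replicates. Batch 1 holds SLNCR without triplex-forming region 1 (ΔTFR1), SLNCR without region 2 (ΔTFR2), full-length SLNCR (FL) and the empty vector. Batch 2 holds SLNCR without region 4 (ΔTFR4), SLNCR without region 5 (ΔTFR5), FL and the empty vector. Triplex formation means that RNA lies in the groove of a DNA double helix, and the design asks which genes these regions regulate. All groups share the vector backbone, the transfection and the drug. The constructs are expressed from a plasmid, so the comparisons concern overexpressed and not endogenous SLNCR.

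MALAT1 and NEAT1 are transcribed from neighbouring genes on chromosome 11, at 65497688 to 65506516 and 65422774 to 65445540, both on the plus strand (GRCh38, GENCODE 29). MALAT1 gathers in nuclear speckles, which store splicing factors, and NEAT1 is the scaffold of paraspeckles, nuclear bodies built on RNA. KCNQ1OT1, H19 and MEG3 are imprinted RNAs, expressed from 1 parental allele, and KCNQ1OT1 silences genes around it in cis. DLEU2 is the host transcript of the microRNAs miR-15a and miR-16-1. PVT1 lies beside the oncogene MYC, CASC15 lies near SOX4 in a neuroblastoma susceptibility region and has been studied in melanoma, and MIAT is a nuclear RNA first described in heart disease.

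CASC15 and DLEU2 gave the largest called differences. The stretch before a RefSeq start of each is shown because the study concerns triplex-forming RNA, which binds runs of purines (A or G) in DNA. RefSeq (GRCh38.p14) windows of 250 bases before to 50 bases after a gene start were available for 6 of the 10 RNAs. Capitals mark the longest unbroken run of purines, or of pyrimidines (C or T), which is a run of purines on the other strand. The first window is chr6:21666163-21666462, plus strand, and the second chr13:50125492-50125791, minus strand. GENCODE 29 starts CASC15 at 21664772 and DLEU2 at 50125720, so by that annotation both marked runs lie inside the gene.

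CASC15: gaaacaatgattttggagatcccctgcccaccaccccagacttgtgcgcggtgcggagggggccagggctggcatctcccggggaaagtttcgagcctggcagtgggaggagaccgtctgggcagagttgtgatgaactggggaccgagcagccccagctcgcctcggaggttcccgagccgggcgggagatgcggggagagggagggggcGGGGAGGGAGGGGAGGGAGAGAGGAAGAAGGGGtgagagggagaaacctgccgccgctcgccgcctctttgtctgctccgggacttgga

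DLEU2: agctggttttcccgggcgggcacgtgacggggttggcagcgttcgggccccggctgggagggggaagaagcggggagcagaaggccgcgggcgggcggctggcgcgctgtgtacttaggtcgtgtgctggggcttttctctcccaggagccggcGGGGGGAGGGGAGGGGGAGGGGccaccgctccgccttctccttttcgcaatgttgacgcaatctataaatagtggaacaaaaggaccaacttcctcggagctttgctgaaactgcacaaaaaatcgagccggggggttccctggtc

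The CASC15 run is 33 bases long, at positions -39 to -7 from the RefSeq start, and 0.7% of the 35116 windows in the table hold a run at least as long. The DLEU2 run is 22 bases long, at positions -96 to -75, and 4% of windows hold one at least as long. A further RefSeq start of DLEU2 has a run of 17 bases, found in 12% of windows. MEG3, tested in neither batch, had a run of 18 bases, found in 9.4% of windows. The longest runs were 11 bases in MALAT1 (57.8% of windows), 10 in MIAT (72%) and 8 in H19 (94.4%), against a median of 11 over all windows. A run is a feature of these letters only, and binding was not measured. A link between these runs and the differences below was not tested.

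The mature microRNAs that lie in DLEU2 share the seed AGCAGCA, bases 2 to 8, printed in capitals. They map to chr13:50049167-50049188 and chr13:50049027-50049048 on the minus strand (GRCh38.p14).

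hsa-miR-15a-5p: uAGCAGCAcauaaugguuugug

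hsa-miR-16-5p: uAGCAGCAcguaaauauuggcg

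Small RNA libraries were not analysed here, so their mature levels are not given.

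Library totals were 8627449 to 10789211 counts in batch 1 and 24810226 to 33063445 in batch 2. Levels are CPM, counts scaled to the normalised library size, and differences are log2 fold changes ± standard error from edgeR's quasi-likelihood test, called at an adjusted p under 0.05. SLNCR, counted under LINC00673 in batch 1, reached 191 to 205 CPM in ΔTFR1, 187 to 206 in ΔTFR2 and 165 to 240 in FL, against 18.9 to 20.8 with empty vector. In batch 2 it was counted under LINC00511, a row that may hold other transcripts of that gene, and reached 444 to 515 CPM in ΔTFR4, 192 to 376 in ΔTFR5 and 334 to 728 in FL, against 27.9 to 30.1. The lineage gene SOX10 was detected in every library, while TYR and S100B, 2 of 10 melanoma lineage markers, had 0 counts throughout batch 1. In batch 2 the 10 summed to 2240 to 2380 CPM in ΔTFR4 and 1910 to 2010 in ΔTFR5. The sum was 1660 to 2460 in FL and 1660 to 1680 with empty vector. Of 8 tested there against empty vector, 1 was higher and 2 lower in ΔTFR4, 0 and 1 in ΔTFR5, and 1 and 1 in FL. Over all genes 23.9%, 10.2% and 1.16% were called. The 11 markers of other cell types summed to 74.3 to 91.4 CPM in ΔTFR4, 115 to 170 in ΔTFR5, 69.4 to 178 in FL and 129 to 135 with empty vector in batch 2, and most of each sum was KRT8. Among them CDH1 was lower in ΔTFR4 and ΔTFR5 than with empty vector, at -2.07 ± 0.67 (adjusted p = 0.0387) and -3.17 ± 0.72 (0.0172), and LUM was lower in ΔTFR5, at -1.70 ± 0.50 (0.0487). CD3E had 0 counts in every batch 2 library outside FL. In batch 1 the sum was 156 to 163 CPM in ΔTFR1, 162 to 181 in ΔTFR2, 131 to 159 in FL and 172 to 187 with empty vector. The part of these markers in the results below was not tested.

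Of the 10 RNAs, 8 passed the filter on low counts in batch 1 and 9 in batch 2. MEG3, on chromosome 14 from 100779410 to 100861031, passed in neither table. It had 0 counts in all 12 libraries of batch 1, which allows a level of up to 0.277 to 0.347 CPM, depending on the library. In batch 2 it had 0 to 10 counts per library. H19 had 1 to 4 counts per library in batch 1 and entered the test in batch 2 only, through the ΔTFR5 libraries.

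CASC15 was higher in every batch 2 group that received SLNCR, with or without region 4 or 5. Its level was 11.4, 11.9 and 9.78 CPM in ΔTFR4, 13.9, 16.1 and 14.8 CPM in ΔTFR5 and 14.9, 13.1 and 8.59 CPM in FL, against 3.24, 4.41 and 3.67 CPM with empty vector. The lowest of these SLNCR libraries, at 8.59 CPM, lay above the highest empty vector library, at 4.41 CPM, so no group overlapped the control. CASC15 in FL stood 1.69 ± 0.21 above empty vector (adjusted p = 0.00475), a 3.23-fold difference. ΔTFR4 exceeded it by 1.55 ± 0.21 (0.000728), or 2.92-fold, and ΔTFR5 by 1.98 ± 0.21 (0.000359), or 3.95-fold. These 3 comparisons share their control libraries. In bulk RNA a larger share of responding cells and more RNA per cell cannot be told apart. The deletions lay around FL, at -0.15 ± 0.20 for ΔTFR4 (adjusted p = 0.692) and 0.29 ± 0.20 for ΔTFR5 (0.416), and neither passed the test. Every ΔTFR5 library stood above every ΔTFR4 library, but that difference of 0.44 ± 0.20 had an adjusted p of 0.497, and of 0.0485 in a fit of these 2 groups alone. In ascending order the means were 3.77 ± 0.592 CPM with empty vector, 11.0 ± 1.09 in ΔTFR4, 12.2 ± 3.24 in FL and 14.9 ± 1.1 in ΔTFR5 (SD, n = 3 each), and the 3 SLNCR groups did not separate by the test. Without FL replicate 1, whose GC trend deviates, the FL difference was 1.52 (adjusted p = 0.00218). Without empty vector replicate 1 it was 1.59 with an adjusted p of 0.0516, and in a fit of FL and empty vector alone the adjusted p was 0.289.

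CASC15 was the 1 member called among 9 tested in FL against empty vector, where 1.16% of all genes were called. In ΔTFR4 against empty vector 3 of 9 were called and the background was 23.9%. In ΔTFR5 against empty vector 2 of 9 were called and the background was 10.2%. In each deletion against FL 1 of 9 was called, beside a background of 4.36% for ΔTFR4 and 1.38% for ΔTFR5. None of 9 was called in ΔTFR5 against ΔTFR4 by edgeR, where 0.453% of all genes were. DESeq2 called none of them there either, while CASC15 and PVT1 had an unadjusted p under 0.05. So did H19, which passed the filter only through ΔTFR5 and is no test there.

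The libraries of the groups did not overlap for 1 of 9 members in FL against empty vector, where 23% of all genes did not. They did not overlap for 3 of 9 in ΔTFR4 against FL (24.2% of all genes), 4 of 9 in ΔTFR5 against FL (17.1%), 3 of 9 in ΔTFR4 against empty vector (56.7%), 4 of 9 in ΔTFR5 against empty vector (44.6%) and 3 of 9 in ΔTFR5 against ΔTFR4 (27.3%). In batch 1, LINC01419 left out, the count was 1 of 7 members, MIAT, in FL against empty vector (36.5%), in ΔTFR1 against FL (28.9%) and in ΔTFR2 against FL (29.6%), and 2 of 7 in ΔTFR2 against empty vector (10.7%). It was 0 of 7 in ΔTFR1 against empty vector (10.3%) and in ΔTFR2 against ΔTFR1 (9.43%). The batch 2 counts hold H19 in both deletions against FL and in ΔTFR5 against empty vector and ΔTFR4. H19 there passed the filter on low counts only through ΔTFR5, and MIAT in batch 1 only through groups other than FL. Their part in these counts is a description.

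**Figure D1:**
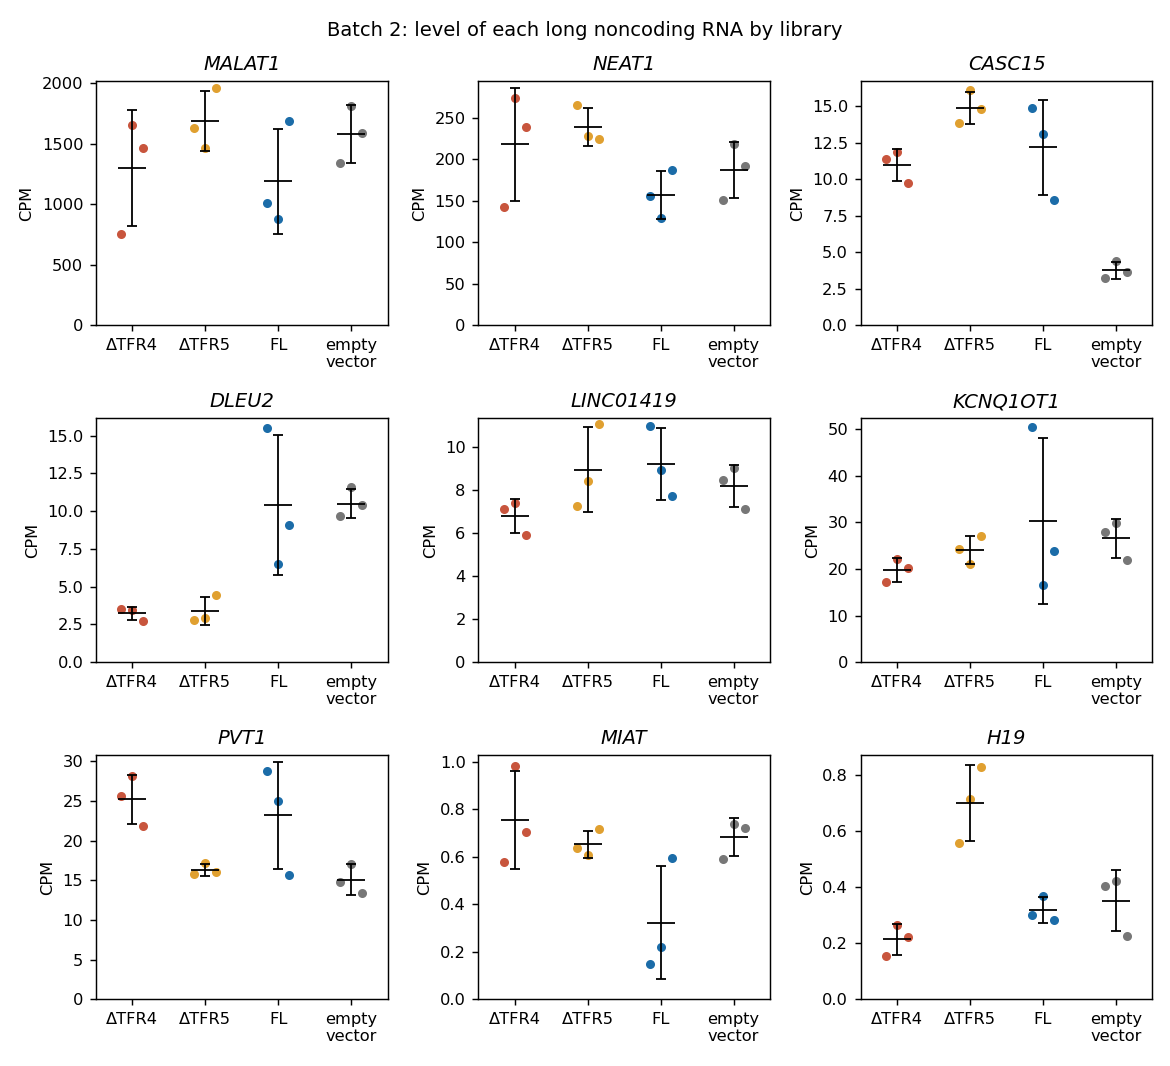
Level of the 9 tested long noncoding RNAs in batch 2, in CPM on a linear axis from 0, for ΔTFR4, ΔTFR5, FL and empty vector. Points are single libraries, and bars give the mean and SD of 3; CASC15 lies at 3.24 to 4.41 CPM with empty vector and above 8 in all other libraries, and DLEU2 lies below 5 CPM in both deletions.

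CASC15 runs along chromosome 6 from 21664772 to 22368328 on the plus strand (GRCh38, GENCODE 29). NBAT1 overlaps it on the opposite strand and was too low to test in either batch, at 0 to 0.462 CPM over all libraries. SOX4, a transcription factor gene upstream of CASC15, showed another pattern. SOX4 lay at 44.8, 36.4 and 40.7 CPM in ΔTFR4, 73.5, 64.2 and 66.7 CPM in ΔTFR5, 74.5, 49.3 and 66.4 CPM in FL and 44.7, 50.1 and 47.6 CPM with empty vector. Relative to empty vector it rose by 0.52 ± 0.15 in ΔTFR5 (adjusted p = 0.0414), and its differences were -0.22 ± 0.15 in ΔTFR4 (0.291) and 0.42 ± 0.15 in FL (0.111). SOX4 was lower in ΔTFR4 than in FL, by -0.64 ± 0.15 (0.0319), and higher in ΔTFR5 than in ΔTFR4, by 0.75 ± 0.15 (0.0489). The groups with raised CASC15 thus held both the lowest and the highest mean SOX4 level. CDKAL1, on the far side of SOX4, passed in none of the batch 2 comparisons.

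In batch 1 CASC15 was low and its differences were uncertain. It had 2.99, 3.16 and 2.31 CPM in ΔTFR1, 2.08, 2.54 and 2.73 CPM in ΔTFR2, 3.79, 3.74 and 2.48 CPM in FL and 1.36, 2.79 and 1.92 CPM with empty vector, or 14 to 41 counts per library. FL replicate 3 lay below empty vector replicate 2, so the groups overlapped. FL stood 0.74 ± 0.27 above empty vector (adjusted p = 0.0453), where the median absolute difference over all genes was 0.16. This call was lost with DESeq2, at 0.106, in a fit of the 2 groups alone, at 0.075, and on leaving out FL replicate 1 or 2 or, of the controls, replicate 1 or 3, at 0.0869 to 0.249. CASC15 has a GC content of 39.2% in its longest transcript. The FL libraries of batch 1 had a GC trend of -0.37 to -0.11, against 0.03 to 0.21 with empty vector. This trend is the fitted log2 level of genes with 60% GC minus that of genes with 40%, relative to the mean of the 12 libraries. With each library's trend removed the CASC15 difference was 0.59 with an adjusted p of 0.272. ΔTFR1 and ΔTFR2 differed from FL by -0.25 ± 0.26 (adjusted p = 0.564) and -0.45 ± 0.26 (0.272).

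DLEU2 fell in both deletions of batch 2 and not in FL. It had 3.55, 3.44 and 2.75 CPM in ΔTFR4 and 2.82, 2.92 and 4.44 CPM in ΔTFR5, against 15.5, 6.53 and 9.09 CPM in FL and 9.65, 11.6 and 10.4 CPM with empty vector. All 6 deletion libraries lay below all 6 others. Relative to FL it fell by 1.68 ± 0.29 in ΔTFR4 (adjusted p = 0.00935) and fell by 1.61 ± 0.29 in ΔTFR5 (0.0208), to 0.312 and 0.327 of the FL level. Relative to empty vector it fell by 1.70 ± 0.29 in ΔTFR4 (0.00205) and by 1.63 ± 0.29 in ΔTFR5 (0.00562). FL and empty vector differed by -0.02 ± 0.27 (adjusted p = 0.971), and ΔTFR5 and ΔTFR4 by 0.07 ± 0.29 (0.97). In descending order the means were 10.5 ± 0.987 CPM with empty vector, 10.4 ± 4.64 in FL, 3.40 ± 0.908 in ΔTFR5 and 3.25 ± 0.434 in ΔTFR4 (SD, n = 3 each). The gap between the upper and the lower pair passed the test, and the gap within each pair did not.

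FL replicate 1 of batch 2 stands apart, with a GC trend of -0.90 where the other 11 libraries have -0.10 to 0.23, and it holds the highest DLEU2 level. Without it DLEU2 was lower than in FL by -1.27 in ΔTFR4 (adjusted p = 0.00467) and by -1.21 in ΔTFR5 (0.0124). With GC trends removed the 2 differences were -1.65 (0.00523) and -1.61 (0.0107). The ΔTFR4 call against FL was lost without any 1 of the ΔTFR4 libraries, at adjusted p of 0.052 to 0.0566, and the ΔTFR5 call without ΔTFR5 replicate 1 or 2, at 0.121 and 0.131. In fits of the 2 groups alone the adjusted p was 0.107 for ΔTFR4 and 0.295 for ΔTFR5.

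DLEU2 lies on chromosome 13 from 49982552 to 50125720 on the minus strand and overlaps DLEU1, TRIM13 and KCNRG on the opposite strand. Salmon's strand setting is not given in the sources used here, so reads in overlapping exons may be shared. DLEU1, the noncoding RNA that runs in the other direction, had 23.6, 22.2 and 21.4 CPM in ΔTFR4, 16.5, 17.5 and 18.3 CPM in ΔTFR5, 25.5, 22.5 and 15 CPM in FL and 17.2, 14.4 and 15.1 CPM with empty vector. Against empty vector DLEU1 rose by 0.53 ± 0.17 in ΔTFR4 (adjusted p = 0.0428), opposite in direction to DLEU2. TRIM13, which encodes a ubiquitin ligase, ranged over 19.2 to 19.7 CPM in ΔTFR4, 21.2 to 24.3 in ΔTFR5, 15.1 to 21.8 in FL and 20.2 to 21.3 with empty vector, and passed in none of the comparisons. KPNA3, an importin gene farther along the chromosome, fell against empty vector by 0.98 ± 0.19 in ΔTFR4 (0.00333), and its difference in ΔTFR5 was -0.57 ± 0.18 (0.0682). SPRYD7 had 14.5, 15 and 14.3 CPM in ΔTFR4, 13.8, 12.4 and 18.2 CPM in ΔTFR5, 27.0, 18.3 and 16.2 CPM in FL and 17.6, 17.8 and 18.5 CPM with empty vector. Its differences from empty vector had the sign of those of DLEU2, at -0.30 ± 0.19 in ΔTFR4 (0.276) and -0.28 ± 0.19 in ΔTFR5 (0.378), and did not pass. Over all members, 22 of 34 neighbouring genes were tested in batch 2, and relative to empty vector 3 rose and 5 fell in ΔTFR4, where 23.9% of all genes were called, and 1 rose and 1 fell in ΔTFR5, where 10.2% were.

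**Figure D2:**
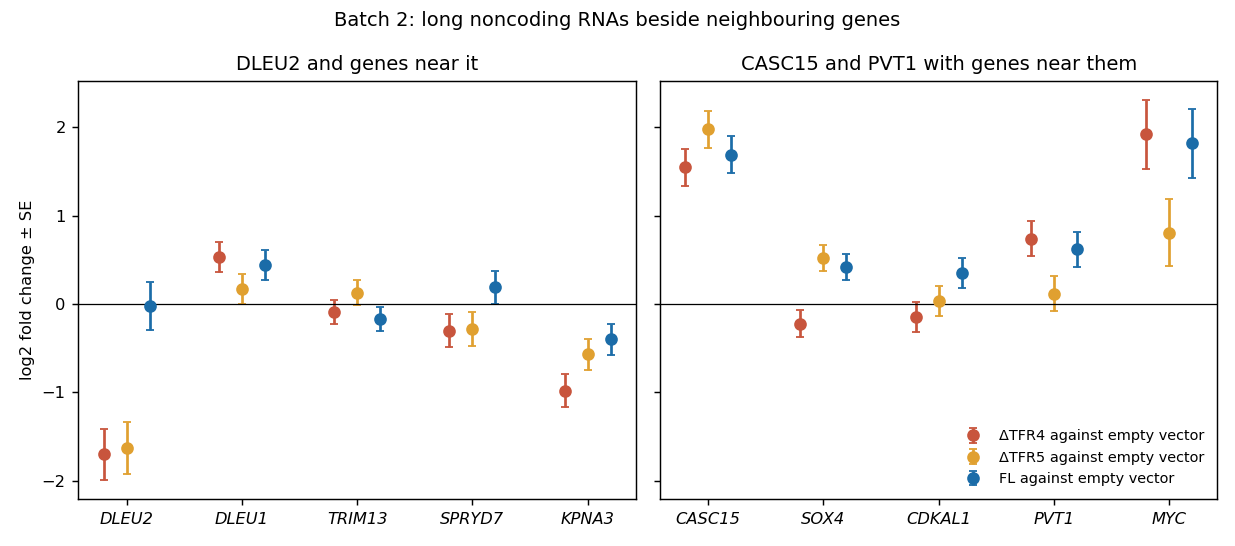
Log2 fold change ± standard error against empty vector in batch 2 for ΔTFR4, ΔTFR5 and FL, with DLEU2 and 4 genes near it on the left, and CASC15 and PVT1 with genes near them on the right. DLEU2 lies at -1.70 and -1.63 in the deletions while TRIM13 stays near 0, and CASC15 lies between 1.55 and 1.98 while SOX4 lies between -0.22 and 0.52.

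In batch 1 DLEU2 had 11.4, 11.1 and 12.3 CPM in ΔTFR1, 12.7, 12.4 and 11.4 CPM in ΔTFR2, 10.9, 13.1 and 12 CPM in FL and 11.0, 11.2 and 10.0 CPM with empty vector. No comparison of batch 1 called it, and the differences of the deletions from FL were -0.05 ± 0.12 and 0.02 ± 0.12. Whether deletions of regions 4 and 5 differ from those of regions 1 and 2 in this respect was not tested, because the tables were made in different ways.

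PVT1, on chromosome 8 from 127794533 to 128101253, was higher in ΔTFR4 of batch 2. Its level was 25.6, 28.1 and 21.9 CPM in ΔTFR4, 15.8, 17.2 and 16 CPM in ΔTFR5, 28.8, 25.0 and 15.7 CPM in FL and 14.8, 17.1 and 13.4 CPM with empty vector. ΔTFR4 lay above empty vector without overlap, by 0.74 ± 0.20 (adjusted p = 0.0169), while 1 FL library lay among the controls. The FL difference was 0.62 ± 0.20 (0.0922) and the ΔTFR5 difference 0.12 ± 0.20 (0.758). The FL difference passed with DESeq2 (0.61, adjusted p = 0.0438). Leaving out empty vector replicate 1 or 3, or ΔTFR4 replicate 1 or 2, ended the ΔTFR4 call, at adjusted p of 0.0529 to 0.0771. ΔTFR5 against ΔTFR4 gave -0.63 ± 0.20, which did not pass (0.314), but passed in a fit of these 2 groups alone (-0.62, adjusted p = 0.00708). Without FL replicate 3, PVT1 passed in FL against empty vector (0.83, adjusted p = 0.00116), in ΔTFR5 against FL (-0.72, 0.00607) and in ΔTFR5 against ΔTFR4 (-0.62, 0.0307). Over refits that each leave out 1 library, calls over all genes were 6 to 5966 in FL against empty vector (main 217). They were 19 to 3480 in ΔTFR5 against FL (main 259) and 39 to 387 in ΔTFR5 against ΔTFR4 (main 85).

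MYC, the transcription factor gene upstream of PVT1, was likewise lowest within FL in replicate 3. MYC had 288, 276 and 249 CPM in ΔTFR4, 115, 162 and 99.8 CPM in ΔTFR5, 333, 348 and 80.6 CPM in FL and 77.3, 73.8 and 64.1 CPM with empty vector. It rose by 1.92 ± 0.39 in ΔTFR4 (adjusted p = 0.00502) and by 1.82 ± 0.39 in FL (0.0496), and its difference in ΔTFR5 was 0.81 ± 0.38 (0.201). FL replicate 3, the lowest of its group in MYC, PVT1 and CASC15, also held the least SLNCR of its group, at 334 CPM. ΔTFR5, with SLNCR at 192 to 376 CPM, had the highest mean CASC15 of the batch, at 14.9 CPM. Its mean PVT1 and MYC, at 16.3 and 125 CPM, lay under those of FL, at 23.2 and 254. A link with the SLNCR level was not tested. In batch 1 PVT1 ranged over 14.8 to 22.0 CPM in ΔTFR1, 13.3 to 17.1 in ΔTFR2, 13.7 to 15.6 in FL and 15 to 17.7 with empty vector, and no comparison called it.

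LINC01419, a noncoding gene on chromosome 8 from 83403758 to 83408900, was highest in FL of batch 1. Its level was 2.07, 1.53 and 2.08 CPM in ΔTFR1, 2.19, 1.69 and 2.08 CPM in ΔTFR2, 3.23, 3.74 and 3.45 CPM in FL and 1.84, 2.15 and 1.6 CPM with empty vector. Every FL library lay above the other 9 libraries of the batch, on 32 to 40 counts against 14 to 20. The fitted differences were 0.89 ± 0.25 for FL against empty vector, -0.88 ± 0.26 for ΔTFR1 against FL and -0.81 ± 0.25 for ΔTFR2 against FL. With GC trends removed they were 0.71, -0.74 and -0.67, and its longest transcript has 38% GC. In batch 2, which played no part in its choice, the level was 7.11, 7.40 and 5.91 CPM in ΔTFR4, 7.28, 8.44 and 11.1 CPM in ΔTFR5, 11.0, 8.93 and 7.75 CPM in FL and 8.47, 9.03 and 7.15 CPM with empty vector. FL and empty vector overlapped there and differed by 0.17 ± 0.20 (adjusted p = 0.599). ΔTFR4 lay below FL by -0.44 ± 0.20 (0.203) without overlap, and ΔTFR5 differed from FL by -0.04 ± 0.20 (0.919).

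**Figure D3:**
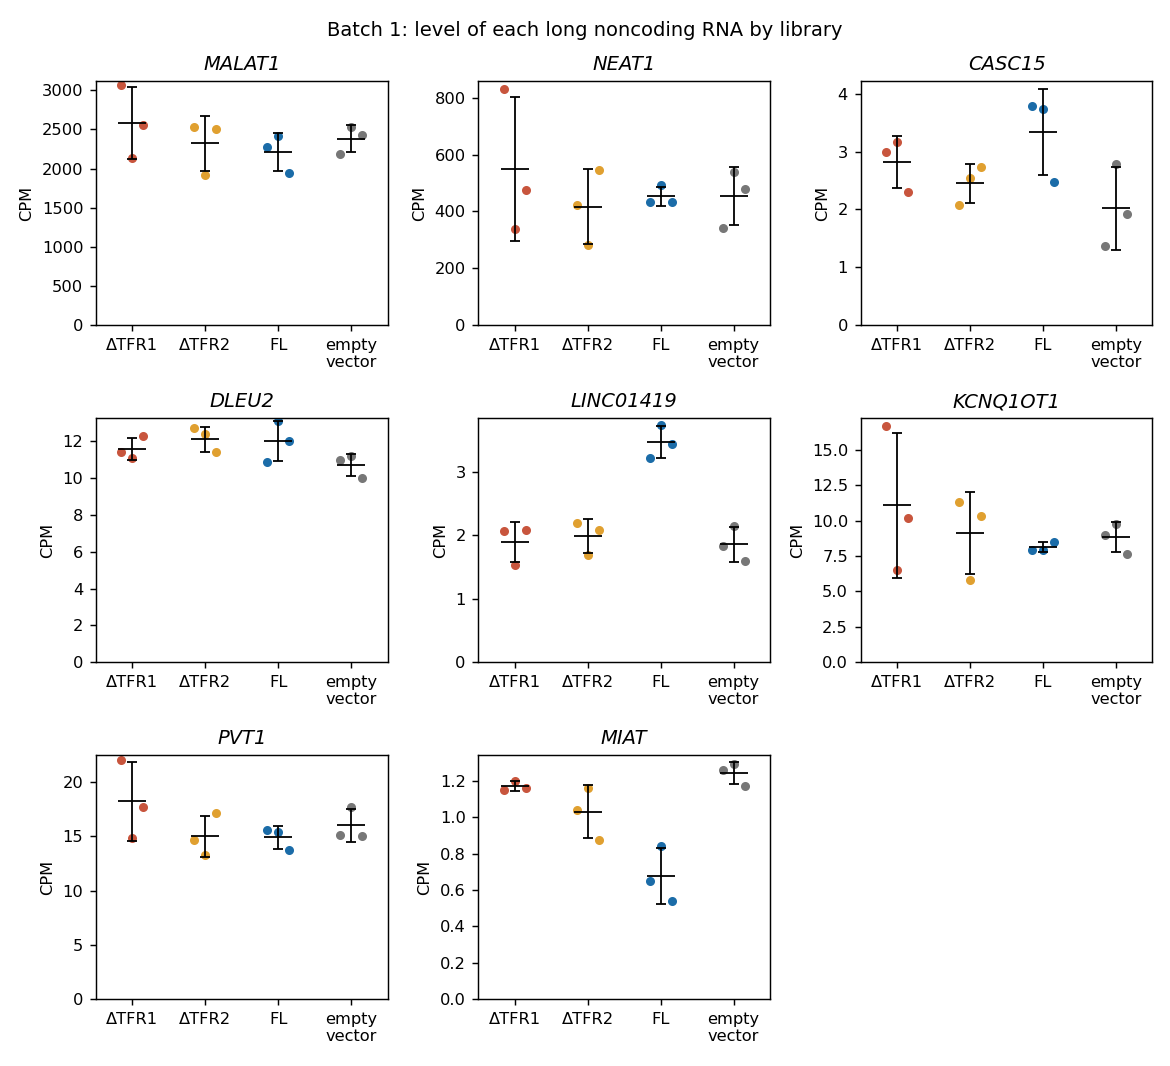
Level of the 8 tested long noncoding RNAs in batch 1, in CPM on a linear axis from 0, for ΔTFR1, ΔTFR2, FL and empty vector. Points are single libraries, and bars give the mean and SD of 3; LINC01419 lies at 3.23 to 3.74 CPM in FL and at most 2.19 elsewhere, while DLEU2 stays between 10.0 and 13.1 CPM.

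Of the 7 other tested members, the batch 1 comparison of FL with empty vector called 1, CASC15, where it called 22.7% of all genes. None of the 7 was called by edgeR in ΔTFR1 against FL, where 10.1% of all genes were, in ΔTFR2 against FL, where 10% were, in ΔTFR1 or ΔTFR2 against empty vector, where 0.00699% and 0.014% were, or in ΔTFR2 against ΔTFR1, where 0% were. DESeq2 called none of them in these comparisons either. PVT1 had an unadjusted p under 0.05 in ΔTFR1 against FL, at 0.034, and in ΔTFR2 against ΔTFR1, at 0.0409, and no other of the 7 had one in these comparisons.

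For MALAT1 and NEAT1 the replicates of 1 group could lie farther apart than the group means. In batch 1 MALAT1 had 3060, 2140 and 2550 CPM in ΔTFR1, 2530, 1920 and 2510 CPM in ΔTFR2, 2270, 2420 and 1940 CPM in FL and 2190, 2530 and 2430 CPM with empty vector. NEAT1 had 831, 339 and 477 CPM in ΔTFR1, 424, 281 and 546 CPM in ΔTFR2, 434, 493 and 433 CPM in FL and 340, 539 and 480 CPM with empty vector. Libraries of all groups overlapped for both RNAs. FL against empty vector gave -0.11 ± 0.16 for MALAT1 (adjusted p = 0.684) and 0.00 ± 0.36 for NEAT1 (0.998). ΔTFR1 replicate 1 was the highest library of the batch and ΔTFR2 replicate 2 the lowest for MALAT1, NEAT1 and KCNQ1OT1 alike, and KCNQ1OT1 stood at 16.7 and 5.82 CPM in them. TALAM1, transcribed antisense to MALAT1, is listed in the batch 1 table with 1.00 to 1.03 times the MALAT1 counts in every library. The strand setting of the counting is not given in the sources used here, so the reads of the pair cannot be told apart.

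In batch 2 MALAT1 had 756, 1660 and 1470 CPM in ΔTFR4, 1630, 1470 and 1960 CPM in ΔTFR5, 1010, 876 and 1690 CPM in FL and 1340, 1810 and 1590 CPM with empty vector. NEAT1 had 142, 274 and 239 CPM in ΔTFR4, 265, 228 and 224 CPM in ΔTFR5, 156, 129 and 187 CPM in FL and 151, 219 and 192 CPM with empty vector. Neither passed in any of the 6 comparisons. ΔTFR5 held more NEAT1 than FL and empty vector without overlap, at 0.61 ± 0.22 (adjusted p = 0.147) and 0.35 ± 0.22 (0.333). Without FL replicate 3, MALAT1 passed in FL against empty vector (-0.76, adjusted p = 0.0468) and in ΔTFR5 against FL (0.84, 0.0458), and NEAT1 passed in ΔTFR5 against FL (0.75, 0.0432). Refits without 1 library called 6 to 5966 of all genes in FL against empty vector (main 217). In ΔTFR5 against FL they called 19 to 3480 (main 259). Deviations of MALAT1 and NEAT1 from their group means had the same sign in 10 of 12 libraries in batch 1 and in 9 of 12 in batch 2. Both are read from the same libraries, so shared library effects enter both.

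**Figure D4:**
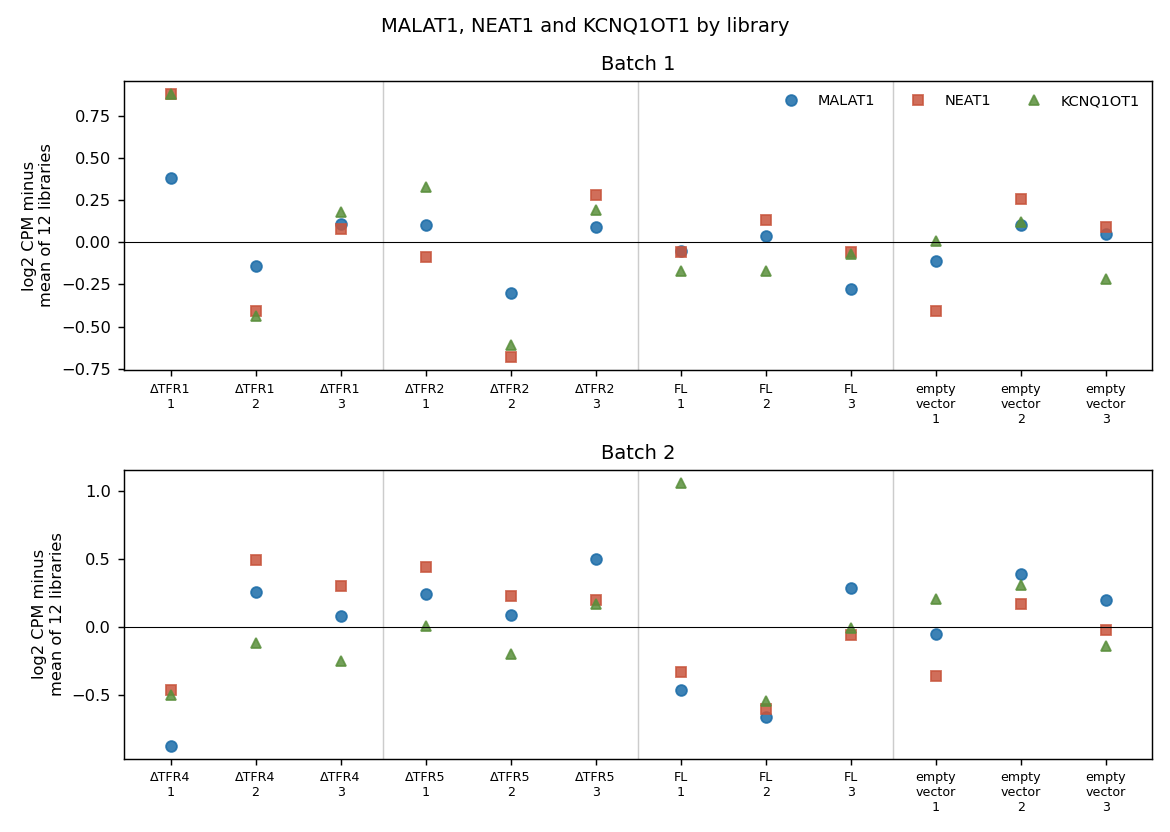
Log2 CPM minus the mean of the 12 libraries of a batch for MALAT1, NEAT1 and KCNQ1OT1, by library, with the replicate number under each group. In batch 1 the 3 RNAs are highest in ΔTFR1 replicate 1 and lowest in ΔTFR2 replicate 2, and in batch 2 KCNQ1OT1 stands apart in FL replicate 1, at 50.4 CPM.

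KCNQ1OT1, antisense to KCNQ1 on chromosome 11 from 2608328 to 2699994, had 17.1, 22.2 and 20.2 CPM in ΔTFR4, 24.3, 21.0 and 27.1 CPM in ΔTFR5, 50.4, 16.5 and 23.9 CPM in FL and 28.0, 29.9 and 21.9 CPM with empty vector in batch 2. FL replicate 1, the library with the deviating GC trend, held the highest value of the batch. ΔTFR4 against empty vector gave -0.42 ± 0.31 (adjusted p = 0.342), which became -0.43 (0.0488) when FL replicate 1 was left out of the shared spread and -0.43 (0.00835) in a fit of these 2 groups alone. Over all genes, leaving out 1 library gave 2309 to 7329 calls in this comparison and the fit of 2 groups 9081 (main 4489). KCNQ1 itself was at 0 to 0.231 CPM over both batches and was not tested. Of the imprinted genes around it, PHLDA2 fell by 0.59 ± 0.16 in ΔTFR4 (adjusted p = 0.0199) and by 0.72 ± 0.16 in ΔTFR5 (0.0165) against empty vector, and SLC22A18 rose by 0.92 ± 0.19 in ΔTFR4 (0.0053). In batch 1 KCNQ1OT1 ranged over 5.82 to 16.7 CPM and passed in none of the comparisons.

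MIAT, on chromosome 22 from 26646428 to 26676475, had 5 to 26 counts per library and stood lowest in FL in both batches. In batch 1 it had 1.15, 1.20 and 1.16 CPM in ΔTFR1, 1.04, 1.16 and 0.875 CPM in ΔTFR2, 0.647, 0.841 and 0.539 CPM in FL and 1.26, 1.29 and 1.17 CPM with empty vector. The FL libraries, with 5 to 9 counts each, lay below all others of the batch. No FL library reached the level that the filter on low counts asks for, so MIAT entered the batch 1 test only through the other groups. Its difference of -0.85 ± 0.38 in FL against empty vector is therefore given without a test. In batch 2 it had 0.579, 0.982 and 0.706 CPM in ΔTFR4, 0.636, 0.606 and 0.715 CPM in ΔTFR5, 0.150, 0.221 and 0.594 CPM in FL and 0.591, 0.740 and 0.719 CPM with empty vector. FL differed from empty vector by -1.07 ± 0.47 (adjusted p = 0.174), with FL replicate 3 among the controls. Without that library the fitted differences were -1.88 in FL against empty vector, 2.01 in ΔTFR4 against FL and 1.80 in ΔTFR5 against FL. These are given without a test, since the remaining FL libraries, with 5 and 6 counts, lay under the filter's minimum count of 10. Calls over all genes moved when any 1 library was left out. They were 6 to 5966 in FL against empty vector (main 217), 79 to 2220 in ΔTFR4 against FL (main 819) and 19 to 3480 in ΔTFR5 against FL (main 259).

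H19, the imprinted partner of IGF2 on chromosome 11 from 1995176 to 2001470, had 4, 7 and 6 counts in ΔTFR4, 14, 20 and 22 in ΔTFR5, 10, 10 and 9 in FL and 13, 12 and 6 with empty vector in batch 2. All ΔTFR5 libraries lay above all others of the batch, at 0.557 to 0.828 CPM against 0.155 to 0.423. H19 passed the filter on low counts only through the ΔTFR5 libraries, where it is highest. Its differences are therefore given without a test. ΔTFR5 exceeded ΔTFR4 by 1.69 ± 0.44, FL by 1.14 ± 0.42 and empty vector by 0.98 ± 0.42. IGF2 was at most 0.740 CPM in batch 2, with 17, 21 and 4 counts with empty vector and 2, 4 and 2 in ΔTFR4. Only empty vector and FL libraries carried it past the filter on low counts. Its fitted difference of -2.19 ± 0.67 in ΔTFR4 against empty vector is therefore given without a test. H19 differed there by -0.71 ± 0.46, likewise without a test.

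**Figure D5:**
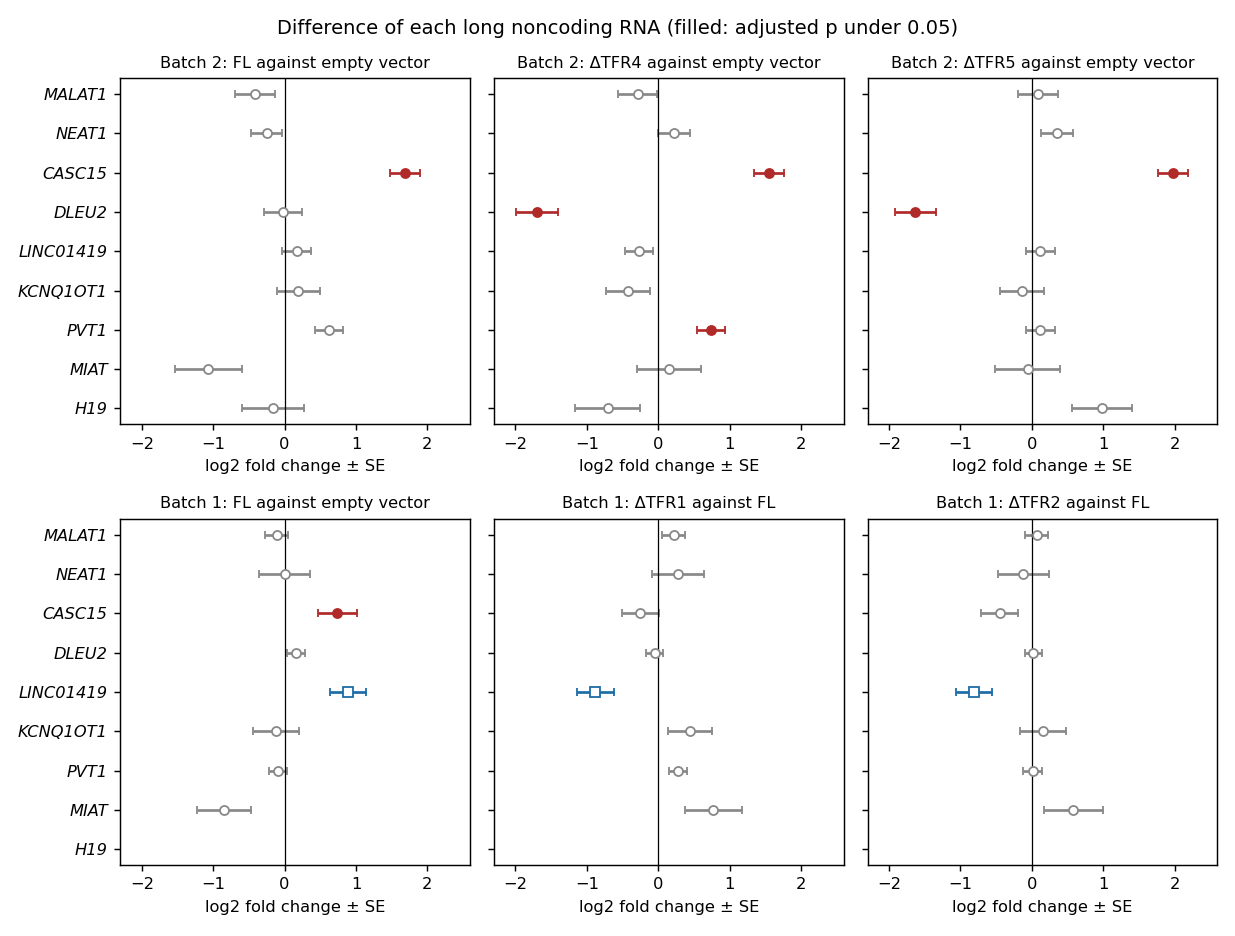
Log2 fold change ± standard error of each tested long noncoding RNA in 6 comparisons. Red filled points passed an adjusted p under 0.05, open grey points did not, and blue squares mark LINC01419 in batch 1, given without a test. The open points of H19 in batch 2 and of MIAT in batch 1 are given without a test too. H19 was not tested in batch 1. CASC15 at 1.55 to 1.98 and DLEU2 at -1.70 and -1.63 lie farthest from 0 among the called points of batch 2.

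Of 46 other long noncoding RNAs chosen for known roles, 32 were tested in batch 1 and 38 in batch 2. In batch 2 7 rose and 2 fell in ΔTFR4 against empty vector, where 23.9% of all genes were called, with a median log2 fold change of 0.33 beside 0.02 over all genes. In ΔTFR5 3 rose and 2 fell beside 10.2%, with a median of 0.21, and in FL 2 rose and 0 fell beside 1.16%, with a median of 0.19. LINC00963 had 121, 141 and 109 CPM in ΔTFR4, 90.8, 106 and 73.4 CPM in ΔTFR5, 79.5, 89.3 and 44.0 CPM in FL and 35.3, 34.9 and 32.4 CPM with empty vector. It rose by 1.86 ± 0.22 in ΔTFR4 (adjusted p = 0.00051), 1.40 ± 0.22 in ΔTFR5 (0.00329) and 1.05 ± 0.22 in FL (0.0439) against empty vector. UCA1, an RNA known from bladder cancer, had 103, 103 and 109 CPM in ΔTFR4, 93.1, 79.0 and 114 CPM in ΔTFR5, 170, 141 and 227 CPM in FL and 284, 297 and 326 CPM with empty vector. It fell by 0.77 ± 0.17 in ΔTFR4 (adjusted p = 0.0267) and by 0.91 ± 0.17 in ΔTFR5 (0.0241) relative to FL. JPX, an RNA of the X inactivation centre, rose by 0.70 ± 0.12 in ΔTFR4 (0.00205) and by 0.70 ± 0.12 in ΔTFR5 (0.00501) against empty vector. In batch 1 3 rose and 0 fell in FL against empty vector, where 22.7% of all genes were called, among them NORAD at 0.12 ± 0.04 (adjusted p = 0.0279) and TUG1 at 0.17 ± 0.06 (0.0283).

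Among all genes annotated as long noncoding, 802 were tested in batch 1 and 3221 in batch 2. The share called was 15.5% in ΔTFR4 against empty vector, beside 25.7% of the other genes, and 4.97% in ΔTFR5, beside 11.2%. Of the 498 called in ΔTFR4, 369 were higher and 129 lower, beside 2342 and 2147 over all genes. In FL against empty vector 21 were called in batch 2, or 0.652% beside 1.26% of the other genes, and all 21 were higher, where 193 of all genes were higher and 24 lower. In batch 1 the same comparison called 56, or 6.98% beside 23.6%, of which 14 were higher and 42 lower, beside 1634 and 1613 over all genes.

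Part of the genes encoding proteins of the nuclear bodies that MALAT1 and NEAT1 belong to fell in batch 2 comparisons in which the 2 RNAs did not pass. In ΔTFR4 against empty vector 23.9% of all genes were called, with a median of 0.02 and 2342 higher and 2147 lower, and in ΔTFR5 10.2%, with a median of 0.02 and 1028 higher and 879 lower. Of 18 paraspeckle protein genes, 0 rose and 7 fell in ΔTFR4, with a median of -0.34, and 0 rose and 4 fell in ΔTFR5, with a median of -0.28. TARDBP, which encodes the RNA-binding protein TDP-43, had 62.5, 59.7 and 65.8 CPM in ΔTFR4, 79.0, 68.7 and 106 CPM in ΔTFR5, 128, 102 and 134 CPM in FL and 149, 149 and 158 CPM with empty vector. It fell by 1.28 ± 0.15 in ΔTFR4 (adjusted p = 0.000511) and by 0.85 ± 0.15 in ΔTFR5 (0.0065) against empty vector, and by 0.95 ± 0.15 in ΔTFR4 against FL (0.00755). RBM14, MATR3 and HNRNPK fell with it in both deletions against empty vector, by 1.15 ± 0.18, 0.61 ± 0.12 and 0.48 ± 0.14 in ΔTFR4. NONO fell in ΔTFR4 by 0.32 ± 0.11 (0.0496). Of 20 nuclear speckle genes, 2 rose and 9 fell in ΔTFR4 against empty vector, with a median of -0.32, and 0 rose and 4 fell in ΔTFR5, with a median of -0.25. PNN, a splicing factor gene, fell by 1.34 ± 0.20 (adjusted p = 0.00108), SRSF1 by 0.72 ± 0.12 (0.00205) and CDK12 by 0.63 ± 0.10 (0.00149) in ΔTFR4. CLK1, a kinase that phosphorylates splicing factors, rose by 0.86 ± 0.17 (0.004). The FL comparison with empty vector called 0 of 18 paraspeckle and 0 of 20 speckle genes in batch 2, where 1.16% of all genes were called. Its medians were -0.29 and -0.10. In batch 1 the FL comparison with empty vector called 22.7% of all genes and 8 of 18 paraspeckle genes, 3 higher and 5 lower, all within 0.30 of 0 on the log2 scale.

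By root mean square difference of centred log2 CPM over the 12 libraries of batch 2, the genes whose pattern was nearest to CASC15 were FAM9B, PNMA2 and AC093838.1, at 0.278, 0.287 and 0.303, where CASC15 itself has an SD of 0.823. Nearest to DLEU2 were AC027176.2, AC245041.2 and TM4SF18, at 0.317, 0.335 and 0.35, beside an SD of 0.9. In batch 1 YPEL2, LINC00668 and ZNF860 lay nearest to CASC15, and CERS6-AS1, CHRNA3 and EMB nearest to LINC01419.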

How the data were processed

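RNA sequencing of A375 cells was analysed from 2 deposited tables. Per the submitters' processing notes, the tools included DESeq2 1.24.0, the counter featureCounts (Subread 1.6.2), the aligner STAR 2.7.3a, cutadapt 2.5 for trimming and FastQC 0.11.5; builds GRCm38 and GRCh38 are named without a role. Batch 1 holds raw counts per gene symbol as deposited by the authors. Batch 2 holds estimated counts from salmon as deposited, rounded here to whole numbers; the sources used here give neither its version and annotation nor the strand setting. Each table was fitted on its own, and levels were compared within a table only.

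The main test was the robust quasi-likelihood test of edgeR 4.0.16, run in R 4.3.3 (filterByExpr, minimum count 10, minimum total 15, TMM), 1 model per batch over 12 libraries, giving 12 comparisons over 14310 and 18763 genes with Benjamini-Hochberg adjustment. Standard errors are |log2 fold change| over the root of F, and the prior count was 2. The common biological coefficient of variation was 0.05 in batch 1 and 0.212 in batch 2. Floors use 3 counts and cover counting error only. Nothing says how separately the replicates were grown beyond calling them biological, so p-values measure the spread between these samples. Every replicate pair differed by more than sampling noise, with chi-square values per gene of 1.5 to 7.12 in batch 1 and 8.44 to 221 in batch 2. Where a symbol repeats, the row with most counts was used. The members and lists were chosen with earlier results of these data known.

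Named genes follow a rule: every member in every comparison, up to 4 called genes with the lowest adjusted p per list and main comparison, and the 3 nearest patterns of members called in a main comparison. Genes named in secondary comparisons, and neighbours given for position, were chosen after their values were seen. Alternatives were RLE factors, DESeq2 1.42.0, no filter, fits of 2 groups, a replicate block, removal of GC trends and leaving out each library. On simulated data the test recovered 100% of changes of 1 on the log2 scale in FL against empty vector of batch 1 and 74% in ΔTFR4 against FL of batch 2. With 100 genes changed by 1 and 100 by 2 on that scale, it also called 23 unchanged genes of 14266 tested in the first and 7 of 18392 in the second. The changed genes were drawn from well-counted genes, with 1 coefficient of variation for all libraries, 0.05 and 0.2. The rates therefore do not cover MIAT, H19 or the batch 1 values of CASC15 and LINC01419, nor the wider spread of the batch 2 FL libraries.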

Additional observations from a re-analysis of the deposited data

Results flagged for a closer look

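PVT1 in FL lay on opposite sides of empty vector in the 2 batches. In batch 1 all 3 FL libraries lay below the mean of the empty vector libraries, with a log2 fold change of -0.09 (adjusted p = 0.644). In batch 2 all 3 FL libraries lay above that mean, with a log2 fold change of 0.62 (adjusted p = 0.0922). Neither difference passed edgeR's test, and the batch 1 value was -0.01 with GC trends removed and 0.00 without empty vector replicate 2, so no change is shown there. The batch 2 difference passed with DESeq2 (0.61, adjusted p = 0.0438). The difference between the batches was not tested.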

How the results depend on the processing

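Recomputing the 102 member results under the alternatives gave 1935 values. The fits of 2 groups gave none for MIAT in ΔTFR2 against FL or for H19 in ΔTFR4 against FL or empty vector, where the member failed the filter. In 1878 values the result kept its side of the threshold, in 41 a call was lost, in 16 one was gained, and 0 called values changed sign. Among the 1878 are 77 values, called under neither setting, that changed sign. The replicate numbers do not pair the libraries: of 18 same-numbered pairs across groups, 3 in batch 1 and 4 in batch 2 had deviations correlated above 0.1. The replicate block changed no call of a member. The causes of the changes below were not tested. The fits of 2 groups and those that leave a library out also hold fewer libraries. Low counts limit MIAT, H19 and the batch 1 values of CASC15 and LINC01419 most.

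LINC01419 is included in the counts of this paragraph and among the 102 member results. Its batch 1 differences were known when it was chosen, so its batch 1 calls describe the processing and are no test. It is the 1 member in the main counts of ΔTFR1 and of ΔTFR2 against FL, and 1 of the 2 in FL against empty vector. The calls over all genes follow below. Members called in batch 1 were 1 in FL against empty vector with DESeq2 and with the 2 groups alone, and 0 with GC trends removed, with or without the replicate block, where the main count was 2. In ΔTFR1 against FL and in ΔTFR2 against FL they were 0 with DESeq2, with the 2 groups alone and with GC trends removed, with or without the block, where each main count was 1. In batch 2 FL against empty vector gave 2, CASC15 and PVT1, with DESeq2 and with GC trends removed plus the block (PVT1 0.67, adjusted p = 0.0422), and 0 with the 2 groups alone, where the main count was 1. With the 2 groups alone ΔTFR4 and ΔTFR5 against FL gave 0 each (main 1 each). ΔTFR5 against ΔTFR4 gave 3 (main 0), namely CASC15, H19 and PVT1. H19 passed the filter only through ΔTFR5, so its call describes the processing and is no test. ΔTFR4 against empty vector gave 4 (main 3), with KCNQ1OT1 added. Leaving out 1 library gave 0 to 2 members in FL against empty vector of batch 1, 0 to 1 in ΔTFR1 and in ΔTFR2 against FL, 0 to 4 in FL against empty vector of batch 2, 0 to 2 in ΔTFR4 against FL, 0 to 5 in ΔTFR5 against FL, 2 to 4 in ΔTFR4 against empty vector, 2 to 2 in ΔTFR5 against empty vector and 0 to 1 in ΔTFR5 against ΔTFR4.

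The calls over all genes moved as follows. In batch 1 the main counts were 3247 in FL against empty vector, 1440 in ΔTFR1 against FL, 1432 in ΔTFR2 against FL, 1 and 2 in ΔTFR1 and ΔTFR2 against empty vector and 0 in ΔTFR2 against ΔTFR1. In that order of comparisons, DESeq2 gave 953 in ΔTFR1 against FL, and no filter gave 2, 4 and 2 in the last 3. The 2 groups alone gave 2108, 304 and 724 in the first 3 and 5 in ΔTFR2 against empty vector. GC trends removed gave 181, 24, 5, 0 and 1 in the first 5, and with the replicate block 370, 97, 110, 0 and 1; the block alone gave 2231 and 2178 in ΔTFR1 and ΔTFR2 against FL. Leaving out 1 library gave 1182 to 4064, 22 to 2752, 0 to 2710, 1 to 1, 1 to 3 and 0 to 0. In ΔTFR1 against FL the calls were 630 higher and 810 lower, with DESeq2 303 and 650.

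In batch 2 the main counts were 217 in FL against empty vector, 819 and 259 in ΔTFR4 and ΔTFR5 against FL, 4489 and 1907 in ΔTFR4 and ΔTFR5 against empty vector and 85 in ΔTFR5 against ΔTFR4. DESeq2 gave 1850, 1897 and 1412 in the first 3, 2928 in ΔTFR5 against empty vector and 239 in the last. No filter gave 907 in the first, 486 in ΔTFR5 against FL and 141 in the last. The 2 groups alone gave 2, 33, 1, 9081, 5635 and 1106. The replicate block gave 399 in the first and 170 in ΔTFR5 against FL. GC trends removed gave 831, 1374, 892 and, in ΔTFR5 against empty vector, 3258; with the block these were 1693, 1460, 776 and 3464, and 129 in the last. Leaving out 1 library gave 6 to 5966, 79 to 2220, 19 to 3480, 2309 to 7329, 440 to 4600 and 39 to 387. The split of calls into higher and lower also moved: DESeq2 gave 1315 and 535 in FL against empty vector (main 193 and 24), 615 and 797 in ΔTFR5 against FL (main 155 and 104) and 144 and 95 in ΔTFR5 against ΔTFR4 (main 67 and 18). GC trends removed gave 326 and 566 in ΔTFR5 against FL and 1407 and 1851 in ΔTFR5 against empty vector (main 1028 and 879).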

Other observations

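CASC15 and PVT1 lay on the same side of their group means in 12 of 12 libraries of batch 2 and in 10 of 12 of batch 1. DLEU2 and LINC01419 did so in 11 of 12 libraries of batch 2, and MALAT1 and MIAT in 11 of 12. In batch 1 these 2 pairs did so in 7 of 12 and 4 of 12. All 3 pairs are named because their counts were the highest of batch 2. These are descriptions of values that share libraries, depth and scaling. MEG3 in batch 2 had 3 counts in each ΔTFR4 library, 5, 3 and 0 in ΔTFR5, 10, 2 and 10 in FL and 6, 4 and 4 with empty vector.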
